A study of Caenorhabditis elegans with 2 samples.

Results

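MicroRNA genes are short non-coding genes whose transcripts are cut into hairpin precursors and then into small RNAs that guide Argonaute proteins to messenger RNAs. Peaks of the transcription factor LSY-2 were located relative to the microRNA genes of Caenorhabditis elegans. All 261 genes of biotype miRNA on the 6 nuclear chromosomes of the WBcel235 annotation were included, out of 46890 nuclear genes of all biotypes. A microRNA gene was called bound when the summit of a thresholded peak, the position of its highest signal, fell in a window that begins 1000 bp before the gene's annotated 5′ end and closes 200 bp after it. By that rule 59 genes (22.6%) were bound and 202 were not, beside 21.1% of protein-coding genes with a summit in the same window. The word states a position of a peak and nothing about transcription.

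The data were ChIP-seq peak lists from 2 biological replicates of whole larvae, held at the first larval stage (L1) by starvation after bleaching, with both sexes pooled. The strain, OP367, has the genotype unc-119(tm4063) III; wgIs367, and carries an insertion for eGFP-tagged LSY-2, so the peaks are those of a tagged transgene product in an unc-119 mutant background. There was a single group, with no second stage, tissue or genotype. The thresholded list held 6850 peaks with signals of 68.8 to 24270, on a scale that the sources do not define. Library depth was not given, so no interval for counting error could be attached to a signal. In whole larvae, a peak in few cells and a weak peak in many cannot be told apart.

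LSY-2 is a zinc finger protein that the left ASE taste neuron needs in order to express the microRNA lsy-6. A mature microRNA recognises its targets mainly through its seed, bases 2 to 8 from its 5′ end, and genes with the same seed form a family. Many microRNA genes lie in introns or in clusters that are transcribed together, so the true start of transcription can be far upstream of the annotated hairpin. For nearly all members the annotated 5′ end is that of the hairpin. The exception among the well-known genes is let-7, annotated as a primary transcript of 1732 bp.

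The mature RNAs of families in which bound genes shared a seed were read from the RefSeq genome of WBcel235. They are written in DNA letters, with the seed in capitals, and "5p" or "3p" is the arm of the hairpin that carries it. The mir-51 family, whose joint loss is lethal to embryos, was bound at all 6 genes, and its 6 RNAs share the seed ACCCGTA.
mir-51 (5p, chromosome IV): tACCCGTAgctcctatccatgtt
mir-52 (5p, chromosome IV): cACCCGTAcatatgtttccgtgct
mir-53 (5p, chromosome IV): cACCCGTAcatttgtttccgtgct
mir-54 (3p, chromosome X): tACCCGTAatcttcataatccgag
mir-55 (3p, chromosome X): tACCCGTAtaagtttctgctgag
mir-56 (3p, chromosome X): tACCCGTAatgtttccgctgag

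The seed ATGACAC occurred in 5 genes, of which mir-64, mir-65, mir-66 and mir-229 were bound, all from 1 cluster on chromosome III, and mir-63 on chromosome X was not.
mir-229 (5p, chromosome III): aATGACACtggttatcttttccatcg
mir-64 (5p, chromosome III): tATGACACtgaagcgttaccgaa
mir-66 (5p, chromosome III): cATGACACtgattagggatgtga
mir-63 (3p, chromosome X, unbound): tATGACACtgaagcgagttggaaa

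Other seeds were split between bound and unbound genes. The seed GGCAAGA was carried by 6 genes, 3 of them bound (mir-72, mir-73 and mir-74). The seed ATCACAG was carried by 4 genes, 3 of them bound (mir-2, mir-43 and mir-250). The seed GACTAGA was carried by 4 genes, 2 of them bound (mir-44 and mir-61). The sequences show that mir-43 and mir-44, neighbours under 1 summit on chromosome II, have the seeds of mir-250 and mir-61, neighbours under 1 summit on chromosome V.
mir-43 (3p, chromosome II): tATCACAGtttacttgctgtcgc
mir-250 (3p, chromosome V): aATCACAGtcaactgttggc
mir-44 (3p, chromosome II): tGACTAGAgacacattcagct
mir-61 (3p, chromosome V): tGACTAGAaccgttactcatc
mir-72 (5p, chromosome II): aGGCAAGAtgttggcatagctga
mir-73 (3p, chromosome X): tGGCAAGAtgtaggcagttcagt
mir-74 (3p, chromosome X): tGGCAAGAaatggcagtctaca

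Other well-known families held more unbound than bound genes. The seed CACCGGG of the mir-35 family, which acts in embryos, was carried by 8 genes, of which mir-42 was bound. The mir-58 family, among the most abundant microRNAs of the worm, had mir-58.1 and mir-80 bound and mir-58.2, mir-81 and mir-82 unbound, a share of 40%, against 22.6% of all microRNA genes. The seed of mir-58.1 differs from that of mir-80 in its last base. The seed GAGGTAG of let-7 was carried by 5 genes and the seed CCCTGAG of lin-4 by 2, none of them bound. let-7 and lin-4 time the larval stages.
mir-42 (3p, chromosome II): tCACCGGGttaacatctacaga
mir-35 (3p, chromosome II, unbound): tCACCGGGtggaaactagcagt
mir-58.1 (3p, chromosome IV): tGAGATCGttcagtacggcaat
mir-80 (3p, chromosome III): tGAGATCAttagttgaaagccga
mir-82 (3p, chromosome X, unbound): tGAGATCAtcgtgaaagccagt
let-7 (5p, chromosome X, unbound): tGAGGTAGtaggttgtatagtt
mir-48 (5p, chromosome V, unbound): tGAGGTAGgctcagtagatgcga
lin-4 (5p, chromosome II, unbound): tCCCTGAGacctcaagtgtga

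RefSeq listed a mature arm for 260 of the 261 genes. Of 46 seeds found in at least 2 genes, ACCCGTA was the 1 seed with every gene bound. A further 19 seeds were carried by both bound and unbound genes, and 26 by unbound genes alone. Genes of a cluster share summits, so the genes of a seed group are not independent of one another.

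The bound share of the microRNA genes was close to that of protein-coding genes. The 59 bound genes made up 22.6% of 261. With the same window and list, 21.1% of protein-coding genes (4216 of 19973) and 14.1% of all nuclear genes other than microRNA genes (6575 of 46629) had a summit. The microRNA share was below that of tRNA genes (40% of 612) and snoRNA genes (43.9% of 346) and above that of snRNA genes (17.8% of 129) and lincRNA genes (20.6% of 194). None of these differences was tested.

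Bound genes were unevenly spread over families and chromosomes. Of 45 genes in the 7 family and tissue lists, 21 were bound (46.7%), against 38 of the 216 genes in no list (17.6%). The lists were written with earlier results of these data known, and members of a cluster share summits. On chromosome III 13 of 27 microRNA genes were bound (48.1%), against 32.9% of the coding genes there. On chromosome II 16 of 49 were bound (32.7%), against 20.9% of coding genes. On chromosome X 7 of 74 were bound (9.46%), against 15.9% of coding genes. The shares were 27.3% of microRNA genes and 30.6% of coding genes on chromosome I, 20% and 19.3% on IV, and 14.3% and 13.6% on V.

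**Figure D1:**
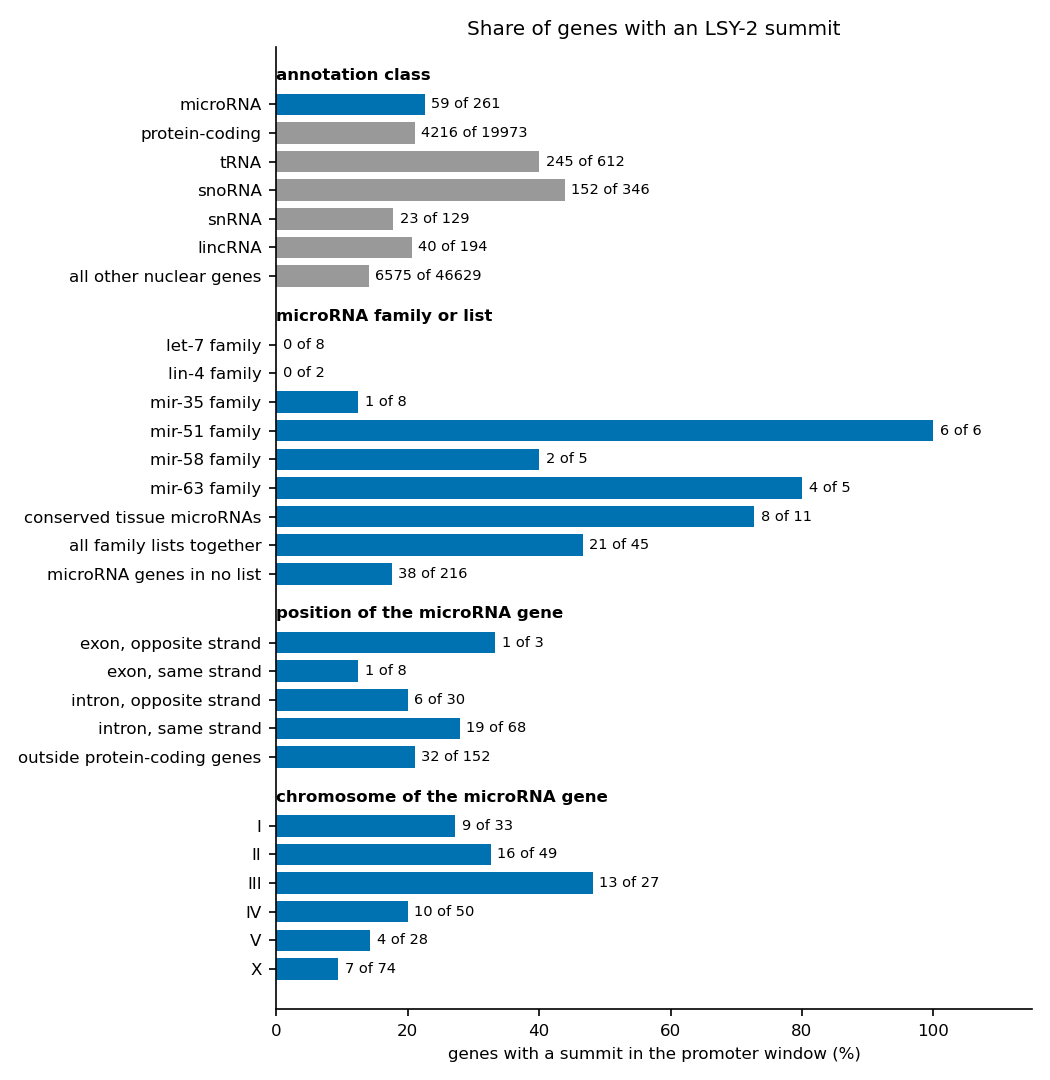
Share of genes with an LSY-2 summit in the promoter window, in percent, with the counts beside each bar, for microRNA genes and the other annotation classes, for the microRNA family lists, for the position of the microRNA gene relative to coding genes and for chromosomes. The microRNA bar (59 of 261) lies close to the protein-coding bar (4216 of 19973), while the mir-51 family bar reaches 100% and the let-7 and lin-4 families have none.

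The 59 bound genes rested on 53 distinct summits. A summit stood at a single microRNA gene in 48 cases and at 2 or more in 5, so 14 genes shared a summit with another. mir-2, mir-52 and mir-4934 each had 2 summits in the window. The median signal of the 53 summits was 155, with quartiles of 84.6 and 278, against a median of 169 over all 6850 peaks and 242 over the 3340 peaks in coding promoter windows. The 37 summits with no coding 5′ end had a median of 140 (69.7 to 1050.5). Peaks outside all coding promoter windows had a median of 133. At or above the median of all peaks were 25 of the 53 summits, and 16 of the 37 without a coding 5′ end.

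**Figure D2:**
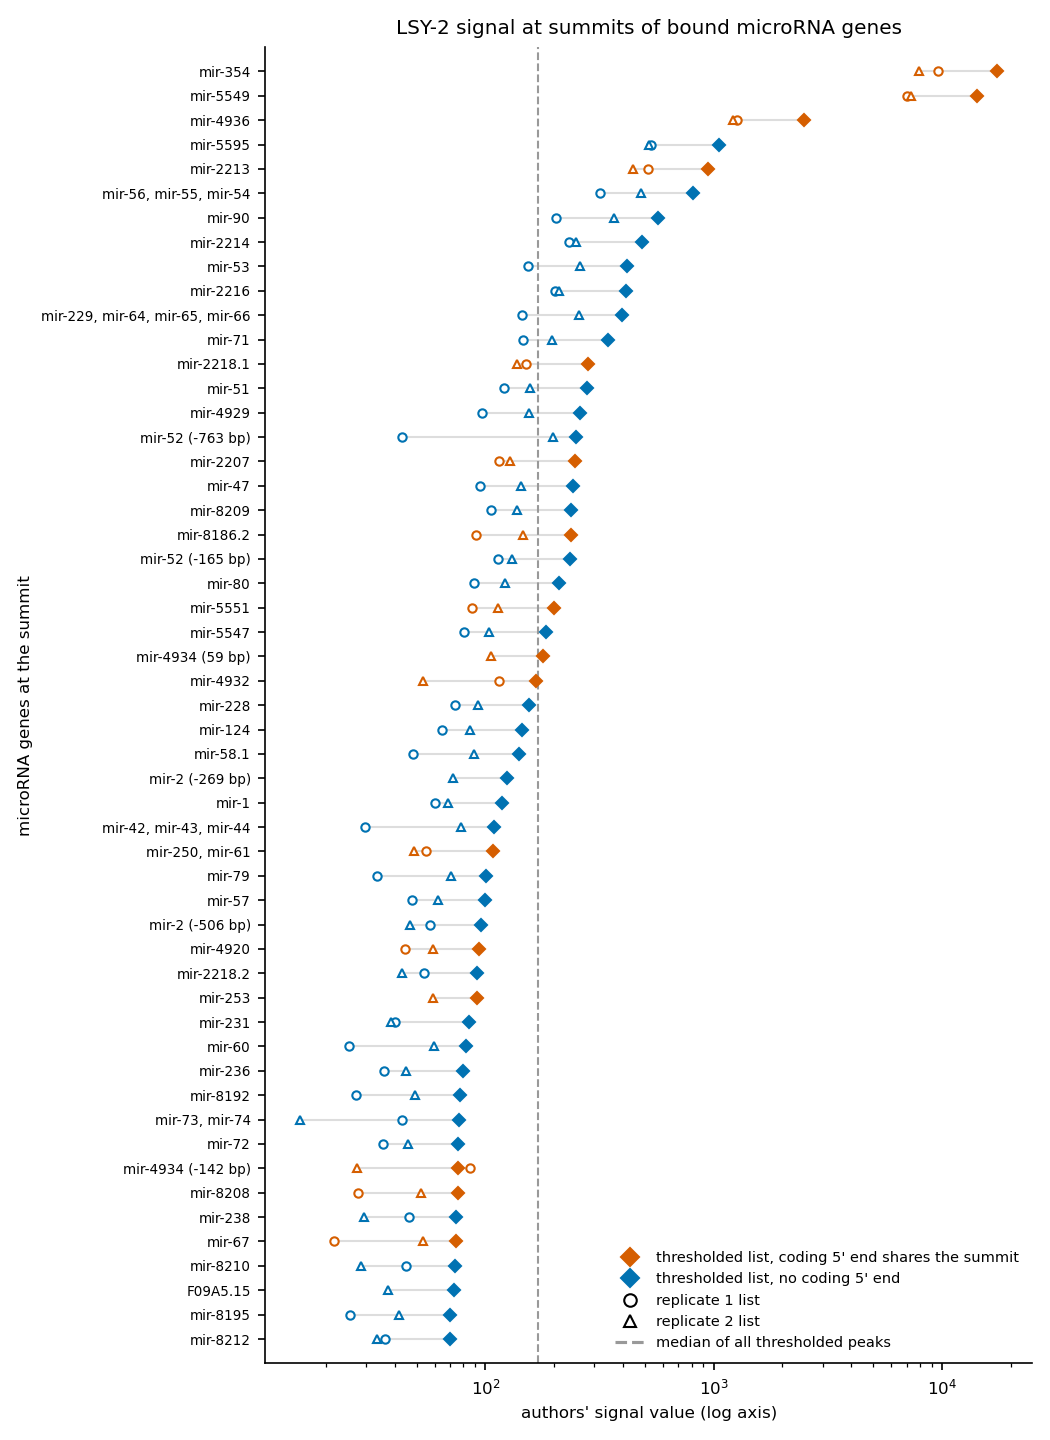
Signal value (log axis) at each of the 53 summits, named by its microRNA genes and, where a gene has 2 summits, by the distance from its 5′ end. Diamonds are the thresholded list, circles replicate 1 and triangles replicate 2, orange where a coding 5′ end shares the summit and blue where none does. The dashed line is the median of all thresholded peaks (169). The 3 highest summits (mir-354, mir-5549 and mir-4936) are orange and stand above 2000, and the blue summits end at 1050.5.

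Both replicate lists held a summit within 100 bp of 49 of the 53 summits (92.5%), against 96.6% of all 6850. Among the 6850 strongest regions of each replicate, 36 of the 53 were matched in both (67.9%), against 81.3% of all peaks. On the level of genes, 41 of the 59 had a summit in the strongest regions of both. The thresholded list was made from these replicates, so the counts describe it and are no separate evidence. Over the 49 summits, signal in replicate 2 relative to replicate 1 had a median log2 of 0.36 with an SD of 0.69, against a median of 0.20 with an SD of 0.52 over all peaks. Replicate 2 was the higher one at 34 summits and replicate 1 at 15, and 8 of the 49 differed by over 2-fold. The sum of both replicate signals was 1.00 times the thresholded signal at the median summit, so a thresholded value is normally about the level of both replicates added.

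The highest signals at microRNA genes stood at the 5′ ends of coding genes. mir-354 had a signal of 9573 in replicate 1 and 7887 in replicate 2, and 17427 in the thresholded list, the 6th highest of all peaks. Its summit lay 847 bp upstream of the mir-354 hairpin and, nearer, upstream of rps-20, a ribosomal protein gene whose exon holds mir-354 on the same strand. It was also 162 bp upstream of the divergent gene ekl-4. mir-5549 had 7007 in replicate 1 and 7311 in replicate 2, and 14270 in the thresholded list, rank 10. That summit lay 19 bp upstream of mir-5549, 149 bp upstream of rfc-4, a subunit of the clamp loader of DNA replication, and 392 bp upstream of eef-1A.1, a translation elongation factor. At both summits the replicates differed by less than the 1.43-fold that 1 SD of the replicate ratio over all peaks comes to.

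Other strong summits were shared with coding genes too. mir-4936 had 1264 in replicate 1 and 1216 in replicate 2, and 2472 in the thresholded list (rank 181). The summit lay 288 bp upstream of it and 288 bp upstream of nduf-9, a gene of respiratory complex I on the opposite strand. mir-2213 had 513 in replicate 1 and 443 in replicate 2, and 947 in the thresholded list, at a summit 393 bp upstream of it. That summit also lay 347 bp upstream of panl-2 and 913 bp upstream of F31E3.12, which are on opposite strands.

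In all, 16 of the 59 bound genes (27.1%) had a summit that also lay in the window of a coding gene, over 16 summits, and 43 (72.9%) had none. By summits this was 16 of 53, against 3340 of all 6850 thresholded peaks in the window of a coding gene. That difference was not tested. At 6 of the 16 summits 2 coding genes on opposite strands shared it with the microRNA gene, at 7 the coding gene was on the strand opposite to the microRNA and at 3 on its own strand. The coding 5′ end was the nearer one at 10 of the 16 and the microRNA 5′ end at 5, and at mir-4936 both were equally far. The moderate summits of this kind were those of mir-2218.1 (281, maea-1), mir-2207 (247, the nucleoporin gene npp-5), mir-8186.2 (237, gmeb-1) and mir-5551 (199, the nuclear receptor gene nhr-97). mir-4934 had summits of 178 and 76.1 between mtr-4, an RNA helicase gene of the nuclear exosome, and catp-6. The one of 178 was matched in replicate 2 only, with 106. The other had 85.3 in replicate 1 and 27.3 in replicate 2, and was not among the strongest regions of replicate 2. mir-4932 had 166, between the kinesin gene klp-16 and smn-1, the worm counterpart of the survival motor neuron gene. The weakest were mir-250 and mir-61 (108, F55A11.4), mir-4920 (93.7, sph-1), mir-253 (91.9, F44E7.5), mir-8208 (75.7, T11G6.3) and mir-67 (74.0, EGAP1.5). The summit of mir-253 had no match in replicate 1, and that of mir-8208 was not among the strongest regions of replicate 1.

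Of the 37 summits without a coding gene's 5′ end, 4 lay in the window of an internal coding transcript start. These were at mir-5595 (nurf-1), mir-2216 (gmps-1), mir-4929 (E01G4.3) and mir-8192 (flcn-1). mir-5595 had the highest signal without a coding gene 5′ end, with 530 in replicate 1 and 519 in replicate 2, and 1050.5 in the thresholded list, 150 bp upstream of it in an intron of nurf-1, a chromatin remodelling gene on the other strand. mir-2216 had 203 in replicate 1 and 211 in replicate 2, and 413 in the thresholded list, 222 bp upstream of it. Its host gmps-1, which encodes GMP synthetase, had a separate summit of 13382 at its 5′ end. Counting every coding transcript start, 20 of the 59 bound genes shared a summit with one.

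The mir-51 family held the strongest microRNA summit that no annotated coding transcript start shared. mir-54, mir-55 and mir-56 lie in tandem on chromosome X, inside an intron of F09A5.3 and on its opposite strand. A single summit stood 308 bp upstream of mir-54, 478 bp upstream of mir-55 and 615 bp upstream of mir-56. It had 319 in replicate 1 and 482 in replicate 2, and 808 in the thresholded list (rank 548). The nearest coding 5′ end, that of F09A5.3, was 3801 bp away. When a summit counted only for the nearest 5′ end of any biotype, mir-54, mir-55 and mir-56 were not bound. A further annotated microRNA gene in the same intron, F09A5.15, lies on the strand of F09A5.3. Its summit, 520 bp upstream, was separate and weak, with 73.1 in the thresholded list, 37.5 in replicate 2 and no match in replicate 1.

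The other 3 genes of the family each had summits of their own on chromosome IV. mir-53 had 153 in replicate 1 and 259 in replicate 2, and 418 in the thresholded list, 120 bp upstream of its 5′ end. mir-51, downstream of mir-53 on the same strand, had 121 in replicate 1 and 157 in replicate 2, and 278 in the thresholded list, at 758 bp upstream, between both hairpins. mir-52 had 1 summit at 165 bp upstream, with 114 in replicate 1 and 131 in replicate 2, and 235.2 in the thresholded list. Its second summit, at 763 bp upstream, had 42.9 in replicate 1 and 199 in replicate 2, and 250 in the thresholded list, the widest replicate difference among the 49 summits (log2 ratio 2.21). All 5 summits of the family were in both full replicate lists and all were among the strongest regions of both.

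The sequences under some of these summits give the bases at the signal maximum. Each window runs 50 bp to either side of the summit on the strand of the microRNA gene, 101 bp in all, with 4 motifs in capitals on either strand, overlaps included. The motifs were the word CTCCGCCC, the repeat GAGAGA, the TATA-box word TATAAA and the E-box palindrome CACGTG. They were picked with earlier results of these data known, and a match is a description of the letters alone.
mir-54, mir-55 and mir-56, chrX:13145352-13145452, minus strand: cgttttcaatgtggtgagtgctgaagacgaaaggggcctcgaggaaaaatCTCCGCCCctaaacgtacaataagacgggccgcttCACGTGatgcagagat
mir-61 and mir-250, chrV:11770270-11770370, minus strand: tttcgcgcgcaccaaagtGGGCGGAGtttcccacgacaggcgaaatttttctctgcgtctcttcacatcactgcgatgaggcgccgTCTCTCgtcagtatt
mir-53, chrIV:11027761-11027861, minus strand: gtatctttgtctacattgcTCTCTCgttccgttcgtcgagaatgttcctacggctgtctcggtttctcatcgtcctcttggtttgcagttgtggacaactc
mir-52, 165 bp upstream, chrIV:14033793-14033893, plus strand: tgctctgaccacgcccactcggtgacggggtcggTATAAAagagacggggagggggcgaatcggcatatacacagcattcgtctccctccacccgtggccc
mir-58.1, chrIV:3232871-3232971, plus strand: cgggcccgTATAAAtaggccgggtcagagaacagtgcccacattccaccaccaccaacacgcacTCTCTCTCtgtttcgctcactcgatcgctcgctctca
mir-64, mir-65, mir-66 and mir-229, chrIII:2172115-2172215, plus strand: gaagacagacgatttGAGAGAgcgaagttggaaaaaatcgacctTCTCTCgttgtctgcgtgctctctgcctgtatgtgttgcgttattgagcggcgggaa
mir-90, chrIII:8874293-8874393, minus strand: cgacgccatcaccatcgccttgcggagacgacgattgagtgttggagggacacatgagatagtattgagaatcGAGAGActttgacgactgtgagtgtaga

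CTCCGCCC occurred in 3 of the 53 windows at microRNA genes (5.66%), those of mir-54 to mir-56, mir-61 with mir-250, and mir-8192, against 1.55% of the windows at all 6850 summits. GAGAGA occurred in 20 windows (37.7%), against 28.1% of all. CACGTG occurred in 5 windows (9.43%), against 4.63% of all, and TATAAA in 5 (9.43%), against 5.21% of all. The median GC content was 46.5% in the microRNA windows and 43.6% in all windows. The shares were not tested against each other.

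Most summits stood a short way upstream of the hairpin. The window reaches 1000 bp upstream and 200 bp downstream, so upstream summits were favoured by construction. The summit lay upstream of the 5′ end for 55 of the 59 bound genes and at or downstream of it for 4 (6.78%). The median distance was −299 bp (quartiles −470 and −180), against −216 bp (quartiles −409 and −118) for the 4216 coding genes with a summit. Among those coding genes, the bins from 0 and from 100 bp downstream held 163 and 101 genes, with 1 more at 200 bp. Both spreads were thus alike in kind, and their difference was not tested. A summit 100 to 500 bp upstream stood at 39 genes, and 13 genes had theirs over 500 bp upstream. The 13 include later genes of a cluster, such as mir-66 at 943 bp and mir-56 at 615 bp. The 4 genes with a summit at or past the 5′ end were mir-8209 (146 bp), mir-4932 (76 bp), mir-4934 (59 bp) and mir-60 (30 bp). The RefSeq hairpin of mir-8209 starts inside the longer annotated gene, and measured from it the summit lay 11 bp upstream.

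**Figure D3:**
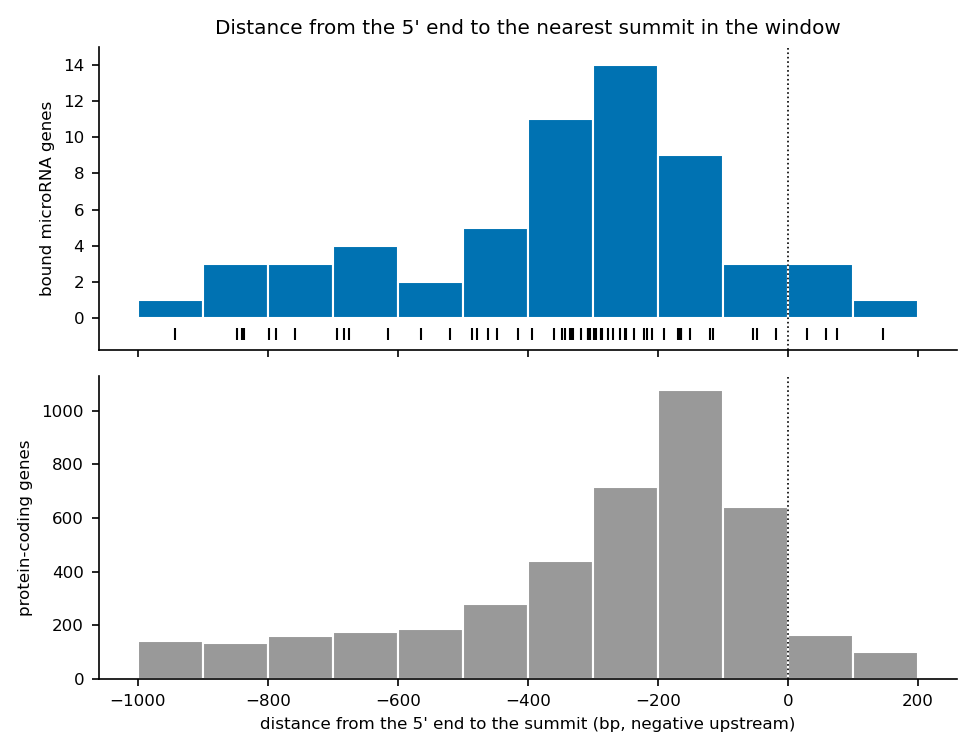
Distance from the annotated 5′ end to the nearest summit in the window, in bp (negative upstream), in bins of 100 bp, for the 59 bound microRNA genes (upper panel, with a tick for each gene) and for the 4216 coding genes with a summit (lower panel). The microRNA median is −299 bp and the coding median −216 bp.

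Clusters were formed from microRNA genes on 1 strand with gaps of at most 10000 bp. There were 29 clusters of 2 or more genes, holding 81 genes, and 180 single genes. A bound gene was found in 10 of the 29 clusters, and in 8 of the 10 every gene was bound. Of the 180 single genes 35 were bound.

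In 1 kind of cluster, a single summit before the first gene came within the window of the next genes. On chromosome III, mir-229, mir-64, mir-65 and mir-66 shared a summit at 287, 683, 837 and 943 bp upstream, in that order. It had 144 in replicate 1 and 256 in replicate 2, and 396 in the thresholded list. mir-42, mir-43 and mir-44 on chromosome II shared one at 236, 335 and 448 bp upstream, with 29.8 in replicate 1 and 78.2 in replicate 2, and 109.5 in the thresholded list. That is a replicate difference of over 2-fold, and the summit was not among the strongest regions of replicate 1. mir-73 and mir-74 on chromosome X shared a summit at 415 and 693 bp upstream, with 43.0 in replicate 1 and 15.4 in replicate 2, and 76.5 in the thresholded list, while mir-75 of the same cluster was unbound. The replicates again differed by over 2-fold, and this summit was not among the strongest regions of replicate 2.

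A second kind of cluster had a summit before each gene. mir-90, mir-238 and mir-80 lie on the minus strand of chromosome III and had separate summits at 259, 169 and 250 bp upstream. mir-90 had 203 in replicate 1 and 367 in replicate 2, and 571 in the thresholded list. mir-80 had 89.5 in replicate 1 and 122 in replicate 2, and 211 in the thresholded list. mir-238 had 46.1 in replicate 1 and 29.3 in replicate 2, and 74.2 in the thresholded list, and was not among the strongest regions of replicate 2. mir-71 and mir-2 on chromosome I followed this layout too, as did mir-2207 and mir-8212 on chromosome II. mir-228 was bound (155), and its cluster neighbour mir-790 was not.

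**Figure D4:**
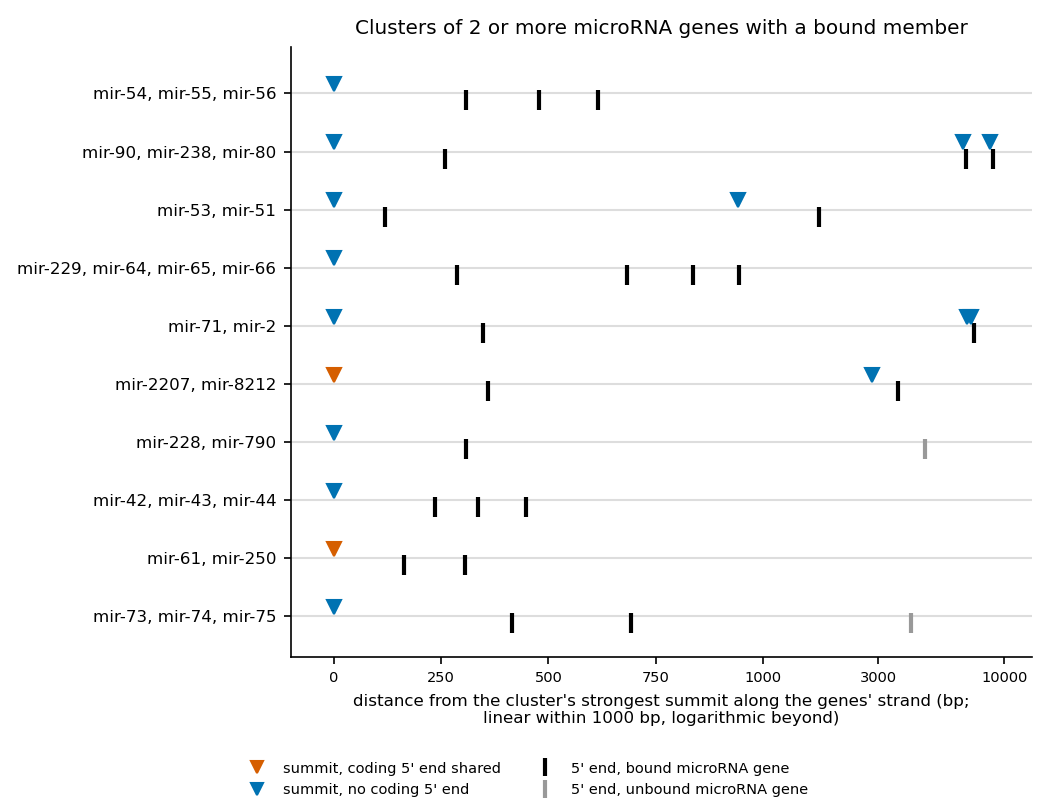
The 10 clusters with a bound gene, each centred on its strongest summit, with distance along the strand of the genes in bp (linear to 1000 bp, logarithmic beyond). Triangles are summits, orange where a coding 5′ end shares them, and vertical ticks are 5′ ends of bound (black) and unbound (grey) microRNA genes. Only summits in the window of a bound microRNA gene are drawn. In each of the 10 the strongest of these lies upstream of every gene, and 4 of the clusters have further drawn summits downstream of it.

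Hosts were examined because an intronic microRNA on the host's strand can come from the host transcript. Of 68 such genes, 19 had a summit in their own window (27.9%) and 25 had one at the host's 5′ end. Both windows held a summit for 13, the own window alone for 6, the host's alone for 12, and neither for 37. For mir-4920 (93.7) and mir-253 (91.9) it was 1 and the same summit in both windows. mir-229, mir-64, mir-65 and mir-66 counted with 1 summit of their own and 1 at their host gcn-1. The other positions gave like shares where there were enough genes to count, with 32 of 152 bound outside coding genes (21.1%) and 6 of 30 in introns of the opposite strand (20%). The 68 genes lie in 62 hosts, of which 21 had a summit at the 5′ end, against 21.1% of all coding genes (4216 of 19973). That difference was not tested.

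Long hosts separated both summits clearly. mir-71, known for its role in adult lifespan and in survival of starved L1 larvae, and mir-2 lie 9962 and 17117 bp inside ppfr-1, which encodes a regulatory subunit of a protein phosphatase. mir-71 had 147 in replicate 1 and 195 in replicate 2, and 345 in the thresholded list, 348 bp upstream of its hairpin. mir-2 had summits of 124 and 95.6 at 269 and 506 bp upstream, and the one of 124 was matched in replicate 2 only, with 71.96. The other had 57.2 in replicate 1 and 46.9 in replicate 2. The 5′ end of ppfr-1 had its own summit of 409. The mir-229 cluster lies 20507 bp inside gcn-1, a translational regulator, whose 5′ end had a summit of 471.

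The 6 intronic genes with a summit of their own and none at the host were mir-58.1, mir-124, mir-90, mir-67, mir-8210 and mir-8212. mir-58.1, 10814 bp inside Y67D8A.2, had 48.3 in replicate 1 and 89.2 in replicate 2, and 140 in the thresholded list, 333 bp upstream. mir-124, a microRNA of sensory neurons in the worm, lies 7212 bp inside the channel gene trpa-1. It had 64.5 in replicate 1 and 85.6 in replicate 2, and 145 in the thresholded list, 486 bp upstream. mir-67, in the metalloprotease gene zmp-1, had 21.6 in replicate 1 and 53.2 in replicate 2, and 74.0 in the thresholded list. EGAP1.5 starts 58 bp from that summit, which was not among the strongest regions of replicate 1. The reverse case included mir-1828, which lies 1790 bp inside pash-1. The host encodes the partner of Drosha in cutting microRNA hairpins, and its 5′ end had a summit of 970. mir-353 in the ribosomal protein gene rpl-24.1 (8678 at the host) and mir-87 in kup-1 (472 at the host) were likewise unbound in their own windows. Both calls were near a cutoff. The summit at rpl-24.1 lay 1005 bp upstream of mir-353, just outside its window. mir-87 had a region that missed the thresholded list (63.4) 134 bp upstream, and it was bound when replicate 1 was left out.

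Conserved tissue microRNAs were bound at 8 of the 11 genes listed (72.7%), against 22.6% of all microRNA genes. Of the 8, 7 had no coding 5′ end at the summit, against 72.9% of all bound genes. The list was written with earlier results of these data known, and neither difference was tested. mir-1, the muscle microRNA, had 60.2 in replicate 1 and 68.5 in replicate 2, and 118 in the thresholded list, 462 bp upstream. mir-228 had 73.3 in replicate 1 and 92.4 in replicate 2, and 155 in the thresholded list, 308 bp upstream. mir-57, a microRNA of posterior cells, had 47.6 in replicate 1 and 61.8 in replicate 2, and 99.6 in the thresholded list, 249 bp upstream. mir-236 had 35.9 in replicate 1 and 44.7 in replicate 2, and 80 in the thresholded list, 167 bp upstream. mir-60 had 25.4 in replicate 1 and 59.6 in replicate 2, and 82.2 in the thresholded list, and was not among the strongest regions of replicate 1. These 5 levels sat below the median of all peaks (169), and those of mir-236 and mir-60 were near the lowest value of the list (68.8).

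The other bound genes without a coding 5′ end were weaker or less known. mir-2214 had 232 in replicate 1 and 249 in replicate 2, and 487 in the thresholded list, 53 bp upstream of its hairpin in B0361.11, whose own 5′ end had a separate summit of 636. 4 further genes were above the median of all peaks. mir-4929 had 96.2 in replicate 1 and 155 in replicate 2, and 259 in the thresholded list, 330 bp upstream. mir-47 had 95.0 in replicate 1 and 143 in replicate 2, and 242 in the thresholded list, 675 bp upstream. mir-8209 had 106 in replicate 1 and 138 in replicate 2, and 238 in the thresholded list. All 3 were higher in replicate 2, as was mir-5547, with 80.3 in replicate 1 and 103 in replicate 2, and 185 in the thresholded list, 839 bp upstream.

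The last 8 genes were below the median of all peaks. mir-79 had 33.4 in replicate 1 and 70.7 in replicate 2, and 100.8 in the thresholded list, 299 bp upstream. mir-8192 had 27.2 in replicate 1 and 49.2 in replicate 2, and 77.6 in the thresholded list, 48 bp upstream. mir-8195 had 25.6 in replicate 1 and 41.8 in replicate 2, and 69.9 in the thresholded list, 209 bp upstream. The summits of these 3 genes were not among the strongest regions of replicate 1. mir-231 had 40.2 in replicate 1 and 38.6 in replicate 2, and 84.6 in the thresholded list, 286 bp upstream. mir-8210 had 45.0 in replicate 1 and 28.6 in replicate 2, and 73.7 in the thresholded list, 565 bp upstream. mir-8212 had 36.4 in replicate 1 and 33.3 in replicate 2, and 69.7 in the thresholded list, 798 bp upstream. The summits of these 3 genes were not among the strongest regions of replicate 2. mir-2218.2 had 53.9 in replicate 1 and 43.2 in replicate 2, and 92.2 in the thresholded list, 319 bp upstream. mir-72 had 35.6 in replicate 1 and 45.9 in replicate 2, and 76.1 in the thresholded list, 166 bp upstream. Both were among the strongest regions of both replicates.

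The unbound genes included the microRNAs with the longest record in worm development. let-7 had its nearest summit 1856 bp upstream of the annotated primary transcript, with a signal of 684, which is 2906 bp upstream of the RefSeq hairpin. mir-84, a let-7 relative, had its nearest summit 2324 bp upstream (225). lin-4 had its nearest summit 5417 bp downstream, and the nearest upstream one was 9571 bp away (77.2). mir-48 and mir-241 had none within 8571 and 10345 bp. lsy-6 had none within 14419 bp, and no region of the pooled list lay in its window. mir-235, known for holding blast cells quiescent in starved L1 larvae, had its nearest summit 1191 bp upstream (99.7), outside the window. mir-34 had its nearest summit 1800 bp upstream (205). The 7 genes of the mir-35 cluster had theirs 2578 to 3278 bp upstream (267).

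Of the 202 unbound genes, 57 (28.2%) had a region of the authors' pooled list of peaks and background in the window and 145 had none. The 10 with the highest pooled signal were mir-244 (68.1), mir-230 (66.2), mir-1832.2 (64.5), mir-239.2 and mir-239.1 with 1 region (63.9), mir-87 (63.4), mir-8201 (57.4), mir-8194 (48.0), mir-83 (47.4) and mir-243 (46.2). The first 6 of these reached the highest −log10 q of the list (4.19), and the weakest thresholded peak had a signal of 68.8. The line between bound and unbound fell within a continuous range, with mir-8212 (69.7) just inside and mir-244 (68.1) just outside. A thresholded summit lay within 2000 bp of 43 unbound genes, and 71 had none within 10000 bp. The median distance to the nearest was 6169.5 bp.

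Genes of the microRNA pathway were set beside the microRNA genes. Of the 35 coding genes matched in 3 lists, 20 had a summit (57.1%), against 21.1% of all coding genes. The lists were chosen with earlier results known, and 1 further name, ntl-1, matched no gene name. Among processing genes 7 of 10 had a summit. pash-1 had 526 in replicate 1 and 444 in replicate 2, and 970 in the thresholded list, 93 bp upstream, while drsh-1, the Drosha gene, had none. dcr-1, the Dicer gene, had 78.3 in replicate 1 and 59.3 in replicate 2, and 138 in the thresholded list, shared with apc-2. lin-28, which blocks let-7 maturation, had 205 in replicate 1 and 196 in replicate 2, and 397 in the thresholded list. tsn-1 (2448), xpo-1 (142), xrn-2 (110) and dcs-1 (82.1) had summits too, and pup-2 and paxt-1 had none. The summit of tsn-1 was shared with F10G7.9, that of xpo-1 (835 bp upstream) with uvs-1 and that of dcs-1 with sec-23. The xrn-2 summit given here, 1 of 2 in its window, was matched in replicate 1 only, with 63.9.

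Effector genes had summits at 9 of 13. The Argonaute gene alg-5 had 354, at a summit shared with histone genes his-67 and his-68, while alg-1 and alg-2, the main microRNA Argonautes, had none. ain-1, which encodes the scaffold that Argonaute recruits, had 385 in replicate 1 and 532 in replicate 2, and 919 in the thresholded list, and ain-2 had none. pab-1 (3234), nhl-2 (1995), vig-1 (1436), cgh-1 (663), ccf-1 (465), dcap-1 (272) and dcap-2 (163) had summits, and xrn-1 had none. The summits of pab-1, nhl-2 and ccf-1 were shared with rpl-30, tag-340 and trap-4, in that order. Those of ain-1, nhl-2, alg-5 and cgh-1 lay 965, 840, 817 and 801 bp upstream. Known targets had summits at 4 of 12, which were lin-14 (259), mef-2 (324), pmk-2 (126) and hbl-1 (116). lin-14 is the target of lin-4, and hbl-1 is a target of the let-7 family. lin-41, daf-12, let-60 and cog-1 had none. The call for let-60 was near the cutoff, with a pooled region of 68.76 against 68.797 for the weakest thresholded peak.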

How the data were processed

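ChIP-seq peak lists in ce11 (WBcel235) from 2 biological replicates were used, and the ce10 lists were not. Per the deposited README texts, the authors made a list per replicate and a pooled list from alignments and a control, with 30000 regions each, and from those lists the thresholded one, by irreproducible discovery rate (IDR, optimal set). Signal values are the authors' own and serve here to describe and rank peaks. The deposited −log10 q-value has a ceiling of 4.19, reached by all thresholded peaks. Summit offsets are other deposited values, counted from the 0-based start, and coordinates here are 1-based. Aligner, peak caller, their versions and depth per sample were not given in the sources used here. Fragments measured 150 to 350 bp per the labels.

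Genes came from Ensembl release 115 and sequences, symbols and hairpins from RefSeq for the same assembly, with Python 3.11.15 and matplotlib 3.10.9. A replicate summit matched within 100 bp. Clusters joined genes of 1 strand with gaps up to 10000 bp. The window and overlap steps were tested on simulated data. Members and lists were chosen with earlier results of these data known. The rule had the 12 bound genes of highest signal and those with no coding 5′ end described in full, unbound genes were named from the family lists, and 10 from the pooled list. No test was made, since there is 1 group. Nothing in the labels says the replicates came from separate cultures beyond the word biological. Some mature sequences are not reported here.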

Additional observations from a re-analysis of the deposited data

How the results depend on the processing

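The count of 59 bound genes became 89 with a window from 2000 bp upstream to 500 bp downstream, 29 with the 3425 strongest peaks, 116 with all pooled regions and 26 when a summit counted only for the nearest 5′ end of any biotype. Coding genes with a summit made up 27.1%, 14.6%, 37.7% and 14% in these settings, beside 34.1%, 11.1%, 44.4% and 9.96% of microRNA genes. Genes lost under the nearest 5′ end included mir-1, mir-57, mir-58.1, mir-71, mir-124, mir-228, mir-236 and all of the mir-51 family but mir-53. Another annotated 5′ end was thus nearer to the summits of these genes. The count of genes sharing a summit with a coding 5′ end (16) became 39, 9 and 26 under the longer window, the 3425 strongest peaks and the pooled list, and it was not run for the nearest 5′ end, where a summit goes to 1 gene by construction. Distinct summits (53) became 95 and 25 under the longer window and the 3425 strongest peaks. The median distance (−299 bp) became −269 bp with a window from 500 bp upstream to 100 bp downstream and −335 bp with the longer one, as the window itself bounds it. Pathway genes with a summit (20) became 13 with the shorter window, 13 with the 3425 strongest peaks and 12 with the nearest 5′ end. By construction these settings admit more or fewer regions, bases or genes per summit. Leaving out 1 replicate gave 53 to 55 bound genes, 48 to 50 summits, 14 to 16 shared genes, 20 to 22 pathway genes, 26 to 27 hosts with a summit and medians of −308 to −280 bp. Those counts used the 6850 strongest regions of the remaining replicate, as many as the thresholded list holds. Similar totals were thus largely set by construction. Without replicate 2, 48 of the 59 genes were still bound, and without replicate 1, 54 were. The other alternatives moved counts by less than 1.5 times. Those with hairpin and all coding transcript 5′ ends were chosen after seeing the data. No paired analysis was possible because the series has 1 group. Depth is unknown, so weak summits and missing ones could not be weighed by counts.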
